A study of Mus musculus with 16 samples.

Results

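Fbp2, Dhrs7c, Penk, Cdo1, Ip6k3 and Ces1d are 6 of the 23946 genes measured in the ventricles of mice with a banded pulmonary artery. They were picked by name because the right and the left ventricle responded to the band differently, so the contrast between the 2 responses chose them and is described here without a test. All 6 were among the 12100 genes analysed, those that reached 1 FPKM in 4 or more of the 16 libraries. FPKM count sequenced fragments scaled to transcript length and library size. In 5 of the genes (Fbp2, Dhrs7c, Penk, Cdo1 and Ces1d) the transcript level was lower in the banded than in the sham right ventricle, and Ip6k3 was higher. In the left ventricle the deposited values differed little for Fbp2, and the means lay on the opposite side of sham for the other 5. For Penk and Ces1d this left difference was 0.38 log2 units each, near the median gene's 0.33, and their left groups overlapped. After division of each library by a scale factor, described below, it was 0.01 for Penk and -0.01 for Ces1d.

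The study took the free walls of the right and left ventricle from male FVB mice, an inbred strain, aged 10 to 13 weeks. A band around the pulmonary artery narrows the vessel and raises the pressure against which the right ventricle pumps, and the left ventricle of the same operation, on which the band puts no direct load, serves for comparison. The groups were right sham, right banded, left sham and left banded, with 4 polyA RNA libraries each. Groups labelled PS are taken here as banded, since banding and sham are the operations the protocol describes. The time from operation to tissue collection is not given in the sources used here. All groups share the strain and the sex, and no transgene or drug is named. The sham libraries are numbered 1 to 4 and the banded libraries of both ventricles PS_9552, PS_9553, PS_9561 and PS_9564. The labels do not say that each library came from its own animal, so the p-values measure the spread between these libraries, which may be technical.

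The genes come from separate branches of muscle metabolism and signalling. Fbp2 is the muscle form of fructose-1,6-bisphosphatase, which runs the committed step of glycolysis backwards, from fructose 1,6-bisphosphate to fructose 6-phosphate. Dhrs7c is a short-chain dehydrogenase of the sarcoplasmic reticulum of striated muscle. Penk encodes proenkephalin, the precursor from which the enkephalins, peptides that act on opioid receptors, are cut. Cdo1, cysteine dioxygenase, oxidises cysteine to cysteine sulfinate, the first step toward taurine, a solute that heart muscle holds in large amounts. Ip6k3 is the muscle-enriched inositol hexakisphosphate kinase, which makes inositol pyrophosphates. Ces1d is a carboxylesterase that hydrolyses triacylglycerol and other esters and is best known from liver and adipose tissue.

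Promoter sequence from RefSeq (GRCm38.p6) is given for 2 of the 6 members, Fbp2 and Ip6k3, a pair with opposite responses in the right ventricle. It is shown so that their upstream sequence can be set beside their values. The 250 bases before each annotated transcription start are printed 5′ to 3′ on the strand of the gene, with every E-box (CANNTG, the core motif of basic helix-loop-helix factors) in capitals. Both genes lie on the minus strand, Fbp2 at chr13:62858401-62858650 and Ip6k3 at chr17:27167765-27168014.
Fbp2: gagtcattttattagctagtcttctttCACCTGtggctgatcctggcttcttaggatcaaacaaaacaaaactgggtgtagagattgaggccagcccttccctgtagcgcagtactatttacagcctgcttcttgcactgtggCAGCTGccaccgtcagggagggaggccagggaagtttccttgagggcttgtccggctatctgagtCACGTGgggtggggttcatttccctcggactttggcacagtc
Ip6k3: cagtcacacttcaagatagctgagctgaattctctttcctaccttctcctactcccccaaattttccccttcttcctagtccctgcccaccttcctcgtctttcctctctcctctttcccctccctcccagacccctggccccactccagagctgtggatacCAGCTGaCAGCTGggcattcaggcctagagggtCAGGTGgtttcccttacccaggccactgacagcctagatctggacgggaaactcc

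Both windows held 3 E-boxes, and 66.2% of the 32851 promoters of the same length in the table held at least 1. In Fbp2 they were CACCTG at 223 to 218 bases before the start, CAGCTG at 107 to 102 and CACGTG at 42 to 37. In Ip6k3 they were CAGCTG at 88 to 83 and again at 81 to 76, 1 base apart, and CAGGTG at 55 to 50. CAGCTG occurred in 13% of all promoters, and 1.26% held it at least 2 times, as Ip6k3 did. CACGTG occurred in 6.02% of promoters, and 0.849% held this motif together with the former, as Fbp2 did. These hexamers are themselves forms of the E-box, and each of them reads the same on either strand. On both strands, the nuclear receptor half-site AGGTCA had no match in either window and occurred in 14% of promoters. The forkhead motif GTAAACA likewise had no match and occurred in 3.17%. The same held for the promoter element TATAAA, which 12.4% of promoters contained. These matches describe letters and were not set against any measurement of binding.

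**Figure D1:**
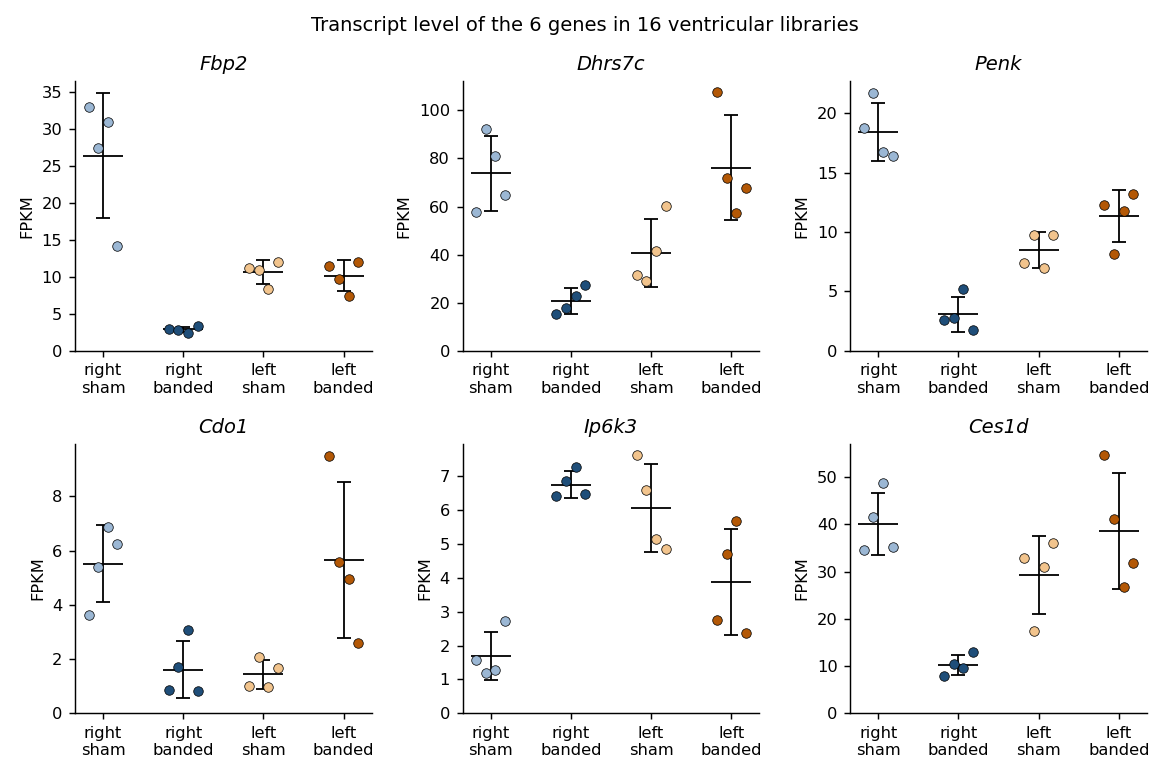
FPKM of the 6 genes (vertical axes) in each of the 16 libraries, by group, with 1 point per library and a bar at the group mean with its SD. In the right ventricle the sham and banded points are apart for every gene, with Ip6k3 the one gene in which the banded points are higher.

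Fbp2 had the largest fold between sham and banded right ventricles among the 6 genes. It stood at 33.0, 27.5, 31.0 and 14.2 FPKM in right sham libraries 1 to 4 and at 2.93, 2.82, 2.39 and 3.37 FPKM in right banded libraries PS_9552, PS_9553, PS_9561 and PS_9564. Every banded value lay below every sham value, the lowest sham value being that of library 4. The left ventricle gave 11.2, 10.9, 8.35 and 12.1 FPKM in sham and 11.5, 9.78, 7.35 and 12.0 FPKM in banded libraries, which overlapped throughout. The group means were therefore 26.4 ± 8.46 FPKM (SD, n = 4) in right sham, 10.7 ± 1.60 in left sham, 10.2 ± 2.11 in left banded and 2.88 ± 0.401 in right banded. The 2 left groups did not differ beyond their spread, and they lay between the right groups. The right mean was 9.19-fold lower in banded libraries. On the log2(FPKM + 1) scale the banding difference was -2.76 ± 0.23 (SE) for the right ventricle and -0.07 for the left, and the difference between these responses was -2.69 ± 0.33, with a 95% interval of -3.39 to -1.99.

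Penk was likewise highest in right sham and lowest in right banded libraries, with the left groups between. The right sham libraries held 18.7, 21.7, 16.7 and 16.4 FPKM and the right banded libraries 2.60, 2.72, 5.19 and 1.73 FPKM. The groups did not overlap, and the banded value nearest to sham was that of library PS_9561. The left sham libraries held 7.40, 9.76, 6.95 and 9.77 FPKM and the left banded libraries 12.2, 8.13, 11.8 and 13.2 FPKM, so 3 of 4 banded libraries were above every sham library and PS_9553 was within their range. Means were 18.4 ± 2.44 FPKM (SD, n = 4) in right sham, 11.3 ± 2.22 in left banded, 8.47 ± 1.51 in left sham and 3.06 ± 1.49 in right banded. The right mean was 6.01-fold lower after banding and the left mean 1.34-fold higher. The log2 differences were -2.31 ± 0.23 (SE) and 0.38, and the responses differed by -2.69 ± 0.33 (-3.38 to -2.001).

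Dhrs7c and Ces1d, the most abundant of the 6 per transcript length, had profiles that resembled each other. Dhrs7c held 57.7, 92.1, 81.0 and 64.7 FPKM in right sham and 15.3, 17.6, 22.6 and 27.4 FPKM in right banded libraries. In the left ventricle it held 31.4, 29.1, 41.6 and 60.0 FPKM in sham and 107.6, 71.7, 57.2 and 67.9 FPKM in banded libraries. The right groups were apart, while the left groups met at 1 point, sham library 4 lying above banded library PS_9561. The means were 76.1 ± 21.9 FPKM (SD, n = 4) in left banded, 73.9 ± 15.6 in right sham, 40.6 ± 14.1 in left sham and 20.7 ± 5.39 in right banded, and the first 2 did not differ beyond their spread. Dhrs7c was thus 3.56-fold lower in the right and 1.88-fold higher in the left banded mean. The log2 differences were -1.79 ± 0.25 (SE) and 0.91, and the responses differed by -2.70 ± 0.35 (-3.44 to -1.96).

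Ces1d held 34.6, 41.6, 48.8 and 35.3 FPKM in right sham and 7.96, 10.55, 9.70 and 13.0 FPKM in right banded libraries, again without overlap. The left sham libraries held 32.9, 17.4, 31.0 and 36.1 FPKM and the left banded libraries 54.7, 41.1, 26.7 and 31.9 FPKM. These left groups overlapped, sham library 2 being the lowest and banded library PS_9552 the highest. Means were 40.1 ± 6.63 FPKM (SD, n = 4) in right sham, 38.6 ± 12.3 in left banded, 29.4 ± 8.27 in left sham and 10.3 ± 2.10 in right banded, so that right banded alone stood apart from the other groups. The right mean was 3.89-fold lower in banded libraries. The log2 differences were -1.87 ± 0.24 (SE) for the right ventricle and 0.38 for the left, and the responses differed by -2.25 ± 0.34 (-2.97 to -1.53). Ces1d is 1 of a tandem cluster of similar genes, among which reads can be split. Of the others in the table, Ces1c and Ces1g were listed at 0 in every library, and the group means of Ces1a, Ces1b, Ces1e and Ces1f were at most 0.372 FPKM.

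Cdo1 had the largest left difference of the 6 genes with all libraries included. Without the 5 libraries with Rn45s at 0, described with the scaling, PS_9564 is the left banded library that remains. The left difference was then 0.59 log2 units for Cdo1, 0.79 for Dhrs7c and -1.05 for Ip6k3, the last larger in size than that of Cdo1. Cdo1 held 3.61, 5.38, 6.86 and 6.23 FPKM in right sham and 0.877, 1.71, 3.08 and 0.811 FPKM in right banded libraries. In the left ventricle it held 1.02, 2.09, 0.978 and 1.68 FPKM in sham and 9.49, 5.59, 4.94 and 2.60 FPKM in banded libraries. Sham and banded values did not overlap in either ventricle. The pair of high groups was left banded, at 5.66 ± 2.86 FPKM (SD, n = 4), and right sham, at 5.52 ± 1.41. The pair of low groups was right banded, at 1.62 ± 1.05, and left sham, at 1.44 ± 0.541, and neither pair differed beyond its spread. Banded means were 3.41-fold lower in the right and 3.92-fold higher in the left ventricle. The log2 differences had the same size, -1.37 ± 0.32 (SE) and 1.37, and the responses differed by -2.74 ± 0.46 (-3.71 to -1.78).

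Ip6k3 ran the other way. It held 1.57, 1.18, 1.27 and 2.73 FPKM in right sham and 6.40, 6.84, 7.26 and 6.47 FPKM in right banded libraries, with no overlap between them and little spread in the banded group. The left sham libraries held 7.61, 6.59, 5.13 and 4.86 FPKM and the left banded libraries 2.77, 4.68, 5.67 and 2.37 FPKM, with 1 banded library, PS_9561, inside the sham range. Means were 6.74 ± 0.397 FPKM (SD, n = 4) in right banded, 6.05 ± 1.29 in left sham, 3.87 ± 1.57 in left banded and 1.69 ± 0.714 in right sham, and the first 2 did not differ beyond their spread. The right mean was 4.00-fold higher and the left mean 1.56-fold lower in banded libraries. The log2 differences were 1.56 ± 0.24 (SE) and -0.57, and the responses differed by 2.13 ± 0.34 (1.41 to 2.86).

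Few sequenced fragments stand behind some of these levels. FPKM give no depth, so depth was estimated from the smallest values in each library, at 3.388e+05 to 1.288e+06 fragments in right sham libraries, 2.239e+06 to 5.623e+06 in right banded, 1.778e+06 to 4.266e+06 in left sham and 3.388e+06 to 8.913e+06 in left banded. Ip6k3 then rested on an estimated 0.858 to 6.26 fragments per right sham library, where 1 fragment in the shallowest, library 2, is worth 1.38 FPKM, against 30.7 to 87.5 per right banded library. Cdo1 rested on 2.54 to 9.32 fragments in right sham, 2.74 to 24.1 in right banded and 2.76 to 10 in left sham, against 12.3 to 69.5 in left banded. Fbp2 and Penk rested on 7.59 to 17.5 and 6.98 to 36.5 fragments in right banded libraries, and Dhrs7c and Ces1d on at least 28.4 and 25.4 in every library. The right sham values of Ip6k3 and the low groups of Cdo1 are accordingly the least precise, and the fold of Ip6k3 in the right ventricle depends on single fragments. Without right sham libraries 2 and 3, the 2 shallowest, every member kept the sign of both its right difference and its difference between responses.

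**Figure D2:**
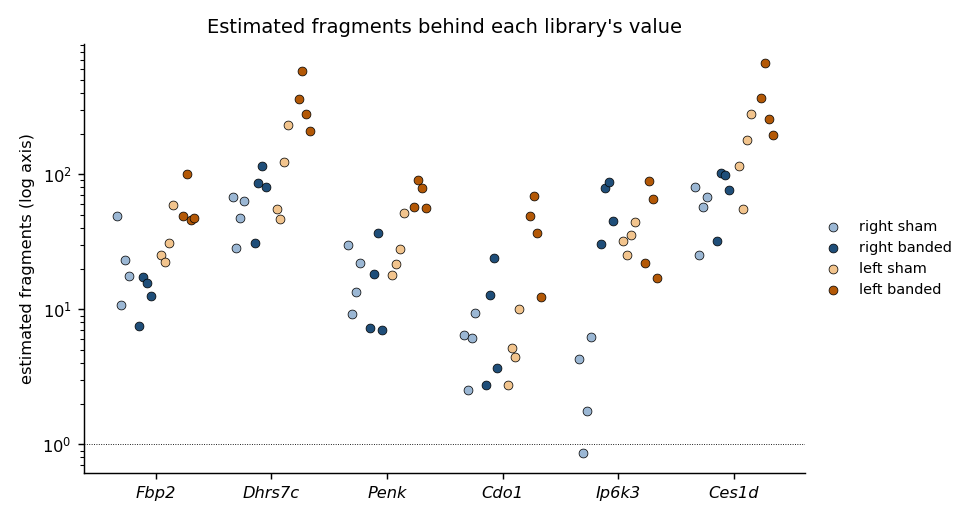
Estimated number of fragments behind each member's FPKM in each library (vertical axis, log scale), by gene and group, 1 point per library. Ip6k3 in right sham libraries sits lowest, between 0.858 and 6.26 fragments, and Dhrs7c and Ces1d stay above 25.

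The crossing of the ventricles can be read from the same values taken right against left. In sham mice the right ventricle was above the left without overlap for Fbp2, Penk and Cdo1, at 2.48-fold, 2.17-fold and 3.83-fold. Of all tested genes, 6.4% were higher in this way. Ip6k3 was 3.59-fold lower in the right sham ventricle, also without overlap, as were 5.04% of genes, and Dhrs7c and Ces1d overlapped at 1.82-fold and 1.37-fold. In banded mice the left ventricle was above the right without overlap for Fbp2 at 3.53-fold, Dhrs7c at 3.67-fold, Penk at 3.71-fold and Ces1d at 3.75-fold, and 8.16% of genes were lower in the right in this way. Cdo1 was 3.50-fold higher in the left mean with an overlap, between right banded library PS_9561 and left banded library PS_9564. Ip6k3 was 1.74-fold higher in the right, as were 2.43% of genes without overlap. Fbp2 and Penk thus changed order between operations with no overlap in either, a pattern held by 1.45% of tested genes, and Ip6k3 held the opposite pattern with 8 genes in all, or 0.0661%. The selection used these differences, so the shares place the members among all genes and support nothing further.

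**Figure D3:**
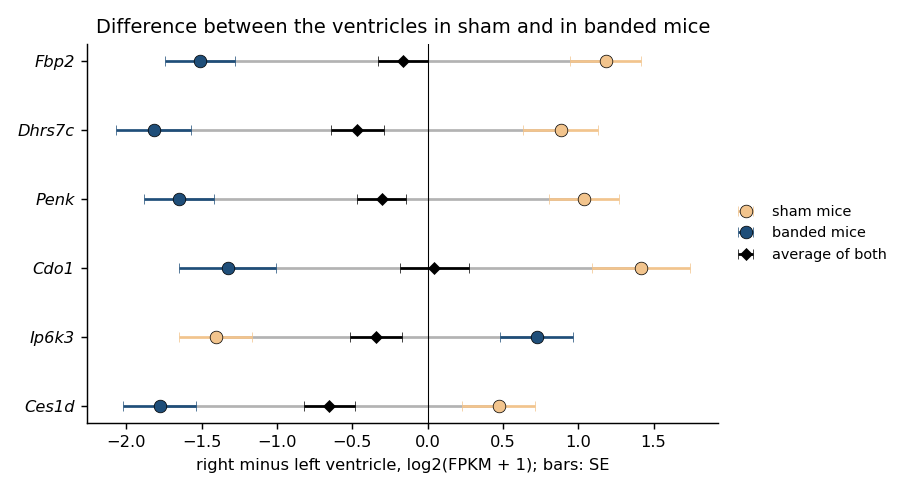
Right minus left difference in log2(FPKM + 1) for each member, in sham and in banded mice, with its SE from the fit of all 16 libraries. Each of the 6 lines crosses 0, downward for 5 genes and upward for Ip6k3.

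Within the right ventricle all 6 members were apart, 5 lower and 1 higher, where 5.07% of tested genes were lower and 12.6% higher without overlap. Within the left ventricle Cdo1 alone was apart, higher in banded libraries, as were 22.2% of tested genes, while none was lower without overlap, as 0.942% were. Levels as deposited were shifted in some libraries. In 5 banded libraries (left PS_9552, PS_9553 and PS_9561, right PS_9561 and PS_9564) the ribosomal RNA precursor Rn45s is listed at 0, and their scale factors, the median ratio to a common reference over 8211 genes, were 1.217 to 1.285 against 0.840 to 1.022 in the other 11. The median gene differed between banded and sham by 0.26 log2 units in the right ventricle and 0.33 in the left as deposited, and by 0.11 and 0.01 after division by the scale factor. With TPM scaling, which brings each library to the same sum, these medians were 0.65 and 0.18, and with quantile normalization -0.01 and -0.02. Rescaled by the factor, the left differences became -0.44 for Fbp2, 0.51 for Dhrs7c, 0.01 for Penk, 1.06 for Cdo1, -0.90 for Ip6k3 and -0.01 for Ces1d. Left sham and banded values of Ip6k3 then no longer overlapped, and Cdo1 was apart between banded ventricles. The rescaled right differences were -2.93 for Fbp2, -1.98 for Dhrs7c, -2.47 for Penk, -1.51 for Cdo1, 1.43 for Ip6k3 and -2.05 for Ces1d. Their signs, and those of the differences between responses, were the same under each of the 28 alternative settings.

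**Figure D4:**
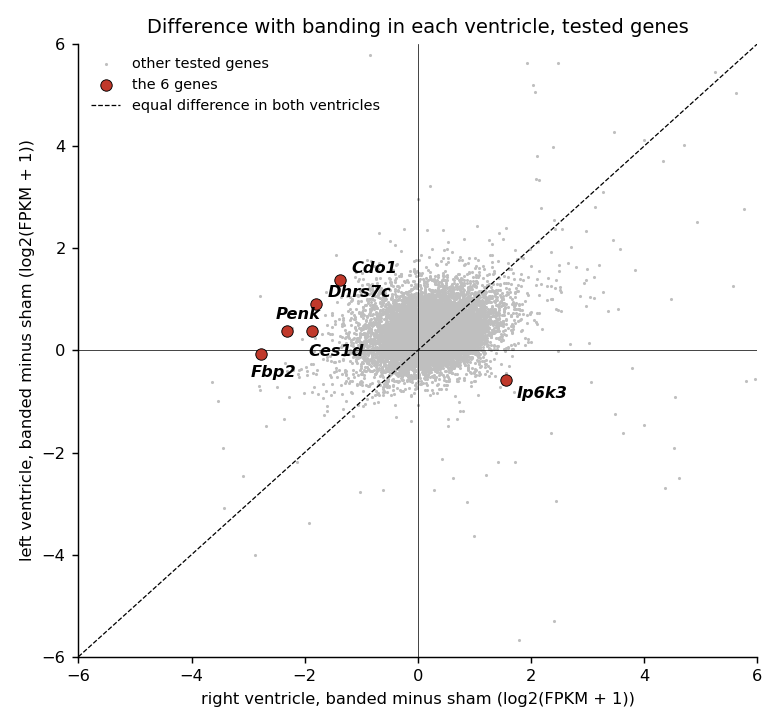
Banding difference in the right ventricle (horizontal axis) and in the left ventricle (vertical axis), both in log2(FPKM + 1). The 12100 genes are in grey and the 6 members in colour, with 15 genes outside the axes. Fbp2, Penk, Ces1d, Dhrs7c and Cdo1 lie below 0 on the right ventricular axis and spread from -0.07 to 1.37 on the left, and Ip6k3 lies in the opposite corner.

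The average of the 2 operations, right minus left, was the only comparison tested for the 6 genes. With equal group sizes it is uncorrelated with the contrast that chose them if the groups also vary equally. Both use the same estimate of spread, so the test is not fully independent of the choice. None of the 6 passed at an adjusted p of 0.05 (limma, Benjamini-Hochberg over 12100 genes), and 0.57% of all genes did. After rescaling none of the 6 passed either, against 3.44% of all genes. At an unadjusted p under 0.05, 2 members passed as deposited, Dhrs7c and Ces1d, and 3 did after rescaling, where 16.3% and 20.2% of genes passed. Ces1d came nearest, at -0.65 ± 0.17 (SE, log2, 95% interval -1.01 to -0.29) with an adjusted p of 0.0916 as deposited and 0.0530 rescaled. The others were Dhrs7c at -0.47 ± 0.18 (adjusted p = 0.201, interval -0.84 to -0.10), Ip6k3 at -0.34 ± 0.17 (0.333, -0.70 to 0.02), Penk at -0.31 ± 0.16 (0.363, -0.65 to 0.04), Fbp2 at -0.16 ± 0.17 (0.655, -0.51 to 0.19) and Cdo1 at 0.04 ± 0.23 (0.946, -0.44 to 0.53). Ces1d passed without left sham library 2, at -0.76 with an adjusted p of 0.0309, and under TPM scaling and quantile normalization. Dhrs7c passed under TPM scaling. The intervals of Fbp2, Penk, Cdo1 and Ip6k3 include 0 and leave room for average differences between the ventricles of up to 0.70 log2 units.

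Among themselves the members were compared by the mean absolute difference, over the 16 libraries, between their centred log2 values after rescaling. Dhrs7c and Ces1d were nearest, at 0.211 log2 units, followed by Fbp2 and Penk at 0.338 and Dhrs7c and Penk at 0.367. Fbp2 and Cdo1 were the most distant of the genes lower in the banded right ventricle, at 0.828. Mirrored, Ip6k3 lay 0.391 from Dhrs7c and 0.400 from Cdo1. The profiles share libraries and their depth, and the members were chosen for a common contrast.

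By the same measure, over 16 libraries and 11287 candidate genes, the 3 nearest genes of each member were the same with and without rescaling. Nearest to Fbp2 were Efnb3 at 0.325, Snai3 at 0.346 and Ctf1 at 0.350. Efnb3, a membrane-bound ephrin, held 65.3 ± 14.3 FPKM (SD, n = 4) in right sham and 15.6 ± 2.195 in right banded, and 49.7 ± 9.59 and 40.5 ± 13.6 in left sham and banded libraries. Nearest to Penk were Ech1 at 0.273, an enzyme of fatty acid oxidation, Fitm1 at 0.282, a lipid droplet protein, and Adra1b at 0.287, an adrenergic receptor. Nearest to Dhrs7c were Tnni3 at 0.282, cardiac troponin I, Map1lc3a at 0.308 and Eno3 at 0.310, the muscle enolase. Tnni3 held 4967 ± 336 FPKM in right sham, 2467 ± 403 in right banded, 2829 ± 747 in left sham and 6258 ± 1126 in left banded libraries. Nearest to Cdo1 were Psenen at 0.325, Rpl41 at 0.340 and Cxcl14 at 0.341, and nearest to Ces1d were Ttll1 at 0.276, Gstk1 at 0.302 and Acaa2 at 0.308, a thiolase of fatty acid oxidation. Nearest to Ip6k3 were Aebp2 at 0.234, Mib1 at 0.244 and Fchsd1 at 0.246. Their nearness is a description, and no gene was tested because of it. Eno3 and Tnni3 are tested below because they belong to other lists.

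The closest relatives of the members mostly lacked this pattern or were hardly detected. Of 15 relatives in the table, 5 were tested. The following calls required an adjusted p under 0.05 in the same direction as deposited and rescaled (limma, Benjamini-Hochberg), which 10.5% of tested genes met as higher and 4.93% as lower in the banded right ventricle, 2.44% and 0.298% in the left, and 0.529% and 3.45% for a response higher or lower in the right than in the left. The split of calls depends on the scaling. In the right ventricle 1512 genes were higher and 596 lower as deposited, 1308 and 1101 rescaled, 1043 and 1071 with quantile normalization, and 5691 and 142 with TPM scaling. In the left ventricle the counts in the same order were 1725 and 39, 295 and 190, 245 and 266, and 63 and 13. For the difference between responses they were 64 and 669, 261 and 426, 255 and 266, and 726 and 28. Right ventricular list counts with TPM scaling therefore stand beside 5691 of all 12100 tested genes higher and 142 lower. Whether a list exceeded that share was not tested. Without the 5 libraries with Rn45s at 0, 415 genes passed in the right ventricle, 3 in the left and 9 for the difference, so each left call and each difference named here was lost there. That setting keeps 2 right and 1 left banded library. Of the right calls named in the following, Aldh1a2, Bnip3, Ces2e, Ciart, Cpe, Ethe1, Fbxo32, Got2, Inpp4b, Lipa, Pcx, Pnpla2, Pnpla8, Ppip5k1, Rora and Tst, and the markers Myl2, Myl3, Ins1, Ins2, Iapp, Chga, Chgb and Resp18, also missed the threshold there (adjusted p from 0.0508 to 0.462). Dhrs7 was the 1 relative with a call, its response being lower in the right ventricle, with 11.3 ± 3.04 FPKM (SD, n = 4) in right sham, 7.63 ± 2.52 in right banded, 9.02 ± 1.03 in left sham and 16.5 ± 3.93 in left banded libraries. Dhrs7b, Ip6k1, Ip6k2 and Ado had no call. Ip6k1 held 25.1 ± 3.56 FPKM in right sham and 26.0 ± 3.38 in right banded libraries, and Ip6k2 6.69 ± 2.66 and 8.36 ± 3.18. Ado, which like Cdo1 is a thiol dioxygenase, held 4.30 ± 1.61 and 3.74 ± 0.864 FPKM. Fbp1, the liver form of the bisphosphatase, had group means of at most 0.148 FPKM, and the opioid precursors Pdyn and Pnoc were listed at 0 in every library.

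The calls among enzymes around Fbp2 differed between the ventricles, and those in the left depended on the scaling. Of 24 tested genes of gluconeogenesis and glycolysis, 4 fell and 1 rose after banding in the right ventricle, 5 rose and none fell in the left, and the response was lower in the right for 4 and higher for 1. The median difference was 0.18 log2 units in the right ventricle and 0.71 in the left, against 0.26 and 0.33 over all genes, and 0.01 and 0.36 rescaled, against 0.11 and 0.01. Eno3 fell in the right ventricle, from 734 ± 21.5 to 375 ± 37.3 FPKM (SD, n = 4; log2 difference -0.97, adjusted p = 0.00268), and stood at 473 ± 147 and 833 ± 154 in the left sham and banded libraries. Pgam2, the muscle phosphoglycerate mutase, rose in the left ventricle from 362 ± 107 to 794 ± 108 FPKM (log2 difference 1.16, adjusted p = 0.00213) and was 586 ± 101 and 446 ± 83.0 in the right. Ldhb, the heart-type lactate dehydrogenase, fell from 656 ± 79.2 to 388 ± 33.3 FPKM in the right ventricle (adjusted p = 0.00395). Pcx, the pyruvate carboxylase, and Pfkfb1 were the other 2 that fell there, and Pfkp, a phosphofructokinase, rose in both ventricles. With TPM scaling, 10 of the 24 rose and 1 fell in the right ventricle, where 5691 of all 12100 tested genes rose. None of the 24 changed in the left with that scaling. Eno3 (adjusted p = 0.140), Ldhb (0.349) and Pcx (0.314) then no longer passed in the right, and Pgam2 (0.0668) no longer passed in the left. With quantile normalization 2 rose and 4 fell in the right ventricle and none changed in the left. Pgam2 (0.111) and Pfkp (0.0811) thus missed the threshold in the left. Pgam2 also missed it there with correction for transcript length and GC content (0.0564).

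Of 22 tested genes of retinol metabolism and short-chain dehydrogenases, the family of Dhrs7c, 1 rose and 5 fell in the right ventricle and 1 rose in the left, and the response was lower in the right for 4. Their median difference was 0.00 log2 units in the right ventricle and 0.39 in the left, and -0.18 and 0.05 rescaled. Dhrs11 fell from 77.2 ± 14.0 to 32.9 ± 5.21 FPKM (SD, n = 4; log2 difference -1.21, adjusted p = 0.000523) and held 46.1 ± 5.31 and 46.8 ± 10.7 in the left ventricle. Rdh5, a retinol dehydrogenase, fell from 9.16 ± 0.637 to 3.28 ± 1.82 FPKM (adjusted p = 0.00294). Aldh1a2, which makes retinoic acid and also marks the epicardium, fell from 4.02 ± 0.956 to 1.33 ± 0.458 FPKM (adjusted p = 0.00347). With TPM scaling 6 of the 22 rose and 3 fell, the 3 being Dhrs11, Rdh5 and Aldh1a2. Beside the latter, the summed level of 7 mesothelial and epicardial markers, Aldh1a2 included, was 11.3 to 31.6 FPKM in right sham, 8.81 to 11.7 in right banded, 4.93 to 11.3 in left sham and 8.39 to 15.4 in left banded libraries, and its part in the Aldh1a2 result was not tested.

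Around Penk, 7 genes of opioid peptides, their processing and their receptors were tested, of which 2 rose in the right ventricle and none fell or changed in the left. Pam, which amidates peptides, rose from 80.3 ± 13.1 to 274 ± 63.3 FPKM (SD, n = 4; log2 difference 1.74, adjusted p = 7.96e-05) and had a response that was higher in the right than in the left ventricle. Cpe, the carboxypeptidase that trims peptide precursors, rose from 52.7 ± 6.36 to 84.7 ± 11.2 FPKM (adjusted p = 0.0246). Their direction was the opposite of that of the Penk values. Cpe was lost without right banded PS_9561 or PS_9564 or right sham 2 (adjusted p up to 0.0770) and with correction for transcript length and GC content (0.0570). With TPM scaling 5 of the 7 rose in the right ventricle, as did 5691 of all 12100 tested genes. The median of the list was 0.44 log2 units in the right ventricle and 0.55 in the left, and 0.28 and 0.19 rescaled. Markers of pancreatic islet and acinar tissue, another source of peptide hormones, summed to 650 to 2170 FPKM in right sham, 69.4 to 158 in right banded, 90.2 to 2108 in left sham and 26.1 to 60.6 in left banded libraries. Of these 15 markers Prss2, Amy2a5 and Pnlip were at 0 in every library, and 7 (Ins1, Ins2, Gcg, Iapp, Chga, Chgb and Resp18) fell in the right ventricle, Ins1 not without right banded PS_9561 or right sham 3 (adjusted p up to 0.0600). Their part in the Penk values was not tested.

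Around Cdo1, 18 genes of cysteine and taurine metabolism were tested. In the right ventricle 1 rose and 3 fell, in the left none changed, and the response was lower in the right for 1, with medians of 0.17 and 0.35 log2 units (0.00 and 0.04 rescaled). Got2, the mitochondrial aspartate aminotransferase, fell from 147 ± 14.7 to 106 ± 9.003 FPKM (SD, n = 4; adjusted p = 0.0330). Tst, a sulfurtransferase, fell from 21.9 ± 7.88 to 8.10 ± 2.39 FPKM (adjusted p = 0.0157), and Ethe1, the persulfide dioxygenase, from 31.9 ± 7.78 to 18.99 ± 5.13 (adjusted p = 0.0396). Slc6a6, the taurine transporter, was the gene that rose. With correction for transcript length and GC content, Tst (adjusted p = 0.0564) and Ethe1 (0.186) missed the threshold. Tst was lost without right banded PS_9564 (adjusted p = 0.0565), Got2 without right banded PS_9552, PS_9553 or PS_9561 or right sham 2 or 4 (up to 0.0810), and Ethe1 without left sham 3, right banded PS_9553, right banded PS_9561, right banded PS_9564, right sham 2, right sham 3 or right sham 4 (up to 0.131). With TPM scaling 7 of the 18 rose and none fell, Got2 being at 0.02 log2 units. Of all 12100 tested genes, 5691 rose in the right ventricle with that scaling.

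Around Ip6k3, 19 genes of inositol phosphate and pyrophosphate metabolism were tested, of which 2 rose and 1 fell in the right ventricle, none changed in the left, and 2 had a response that was higher in the right. Ppip5k1, which adds the next phosphate to the products of the Ip6k enzymes, rose from 11.1 ± 3.01 to 26.2 ± 5.12 FPKM (SD, n = 4; log2 difference 1.18, adjusted p = 0.00201) and held 19.9 ± 2.91 and 20.0 ± 4.75 in the left ventricle. Its paralogue Ppip5k2 fell from 18.7 ± 2.09 to 12.1 ± 3.42 FPKM (adjusted p = 0.0404). Inpp4b, a phosphoinositide phosphatase, rose from 0.977 ± 0.735 to 2.77 ± 0.513 FPKM (adjusted p = 0.0264). The medians of the list were 0.26 and 0.25 log2 units, and 0.09 and -0.07 rescaled. Inpp4b was lost without right banded PS_9561 or PS_9564 or right sham 2 (adjusted p up to 0.0736) and with the length and GC correction (0.297), and Ppip5k2 without left banded PS_9552, left banded PS_9553, left sham 3, right banded PS_9552, right banded PS_9553, right sham 1, right sham 2 or right sham 4 (up to 0.0963). With TPM scaling 10 of the 19 rose and none fell in the right ventricle, where 5691 of all 12100 tested genes rose.

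Around Ces1d, 13 carboxylesterases and lipases were tested, of which 3 rose and 2 fell in the right ventricle, none changed in the left, and 1 had a response that was lower in the right. G0s2, an inhibitor of the main triglyceride lipase of fat cells and muscle, fell from 89.8 ± 14.3 to 36.2 ± 4.90 FPKM (SD, n = 4; log2 difference -1.28, adjusted p = 0.000826). That lipase, Pnpla2, fell from 157 ± 21.6 to 94.6 ± 11.9 FPKM (adjusted p = 0.0105). Ces2e rose from 0.0654 ± 0.131 to 1.52 ± 0.555 FPKM (adjusted p = 0.00397), and Pnpla8 and Lipa also rose. The medians were 0.20 and 0.34 log2 units, and 0.01 and -0.05 rescaled. Ces2e missed the threshold with quantile normalization (adjusted p = 0.0757). Pnpla8 was lost without right banded PS_9552, PS_9561 or PS_9564 or right sham 3 or 4 (up to 0.117) and stood at -0.01 log2 units with the length and GC correction. With TPM scaling 7 of the 13 rose and 1 fell, and Pnpla2 did not pass (0.397). Of all 12100 tested genes, 5691 rose in the right ventricle with that scaling. Markers of adipocytes summed to 27.4 to 41.1 FPKM in right sham, 18.02 to 44.7 in right banded, 13.8 to 21.99 in left sham and 27.6 to 46.3 in left banded libraries. Of these 11 genes Ucp1 was at 0 in every library, and Adipoq reached 3.54 FPKM and Cidea 32.2. Cidea rose in the left ventricle but not with TPM scaling (adjusted p = 0.0929) or the length and GC correction (0.0686). The part of these markers in the Ces1d and Cdo1 values was not tested.

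Of the lists wider than 1 member's pathway, 1 held the targets of PPAR, nuclear receptors that drive fatty acid use. Of 19 tested, 11 fell and 1 rose there, 1 rose and 1 fell in the left, and 6 had a response that was lower in the right, with medians of -0.58 and 0.06 log2 units (-0.77 and -0.26 rescaled). Ucp3 fell from 25.2 ± 5.97 to 5.16 ± 1.68 FPKM (SD, n = 4; log2 difference -2.10, adjusted p = 3.01e-05) and held 13.8 ± 2.27 and 10.3 ± 1.63 in the left ventricle. Plin5, a lipid droplet coat protein, fell from 73.9 ± 10.5 to 30.3 ± 6.70 FPKM (adjusted p = 0.000448), and Mlycd, malonyl-CoA decarboxylase, from 67.5 ± 8.01 to 28.7 ± 2.60 (adjusted p = 0.000216). With TPM scaling 7 fell and 4 rose, and Ucp3, Plin5 and Mlycd still passed. Of 23 glucocorticoid and FoxO targets 3 rose and 1 fell in the right, 2 rose in the left and 1 had a lower response in the right, with medians of 0.52 and 0.77 (0.34 and 0.37 rescaled). Hsd11b1, which regenerates active glucocorticoid, was that gene and fell from 18.03 ± 6.79 to 6.13 ± 0.940 FPKM (adjusted p = 0.00186). Bnip3 rose in both ventricles, and Fbxo32, a muscle ubiquitin ligase, in the right from 13.3 ± 2.23 to 32.3 ± 13.7 FPKM (adjusted p = 0.00433). Of 19 clock genes 3 rose in the right (Bhlhe40, Ciart and Rora), none changed in the left and none differed in response, with medians of 0.44 and 0.57 (0.26 and 0.21 rescaled). Bnip3 was lost in the right ventricle without right banded PS_9553, PS_9561 or PS_9564 or right sham 2 (adjusted p up to 0.115), and Rora without right banded PS_9561 or PS_9564 or right sham 2 (up to 0.126). Rora was also lost with the length and GC correction, at 0.35 log2 units against 1.05 (adjusted p = 0.380). With TPM scaling 13 of the 23 glucocorticoid and FoxO targets and 11 of the 19 clock genes rose in the right ventricle. So did 5691 of all 12100 tested genes, and whether these lists exceeded that share was not tested.

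**Figure D5:**
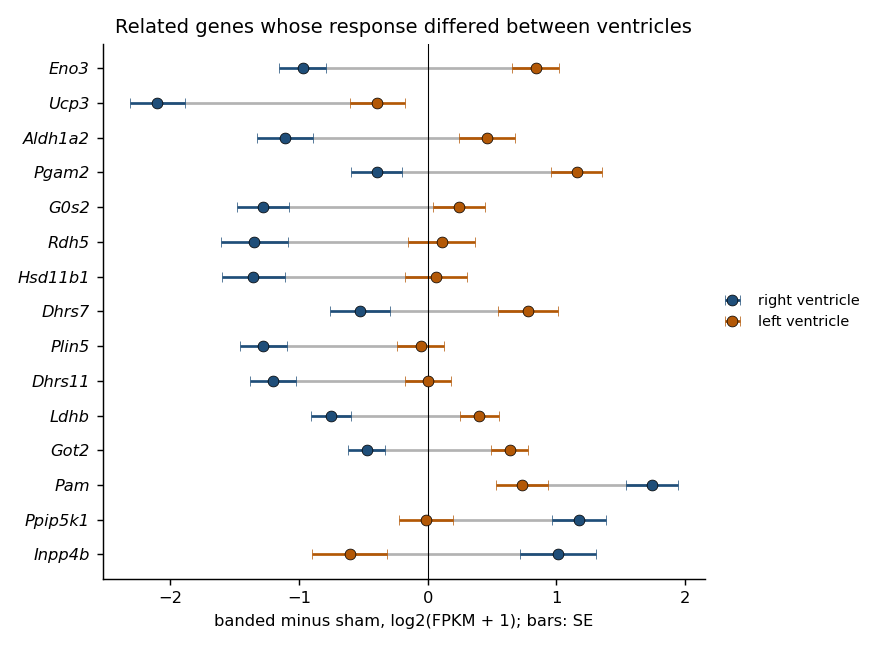
Right and left ventricular banding differences in log2(FPKM + 1) of 15 related genes, those given by the naming rule whose response differed between the ventricles by the test on both scales, with SE, beside 0. The right value is below the left for 12 of them and above it for Pam, Ppip5k1 and Inpp4b.

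Markers of heart muscle cells and of other cell types moved with the groups as well. In bulk tissue, fewer cells of a type and less RNA per cell cannot be told apart. Atrial cardiomyocyte markers (7 genes) summed to 38.6 to 288 FPKM in right sham and 24.6 to 265.5 in right banded libraries. In the left ventricle their sums were 52.1 to 377 FPKM in sham and 27.2 to 286 in banded libraries. All 10 ventricular cardiomyocyte markers were detected. Their summed level was 31366 to 35116 FPKM in right sham, 20484 to 29201 in right banded, 21766 to 33003 in left sham and 42548 to 51709 in left banded libraries and so highest in left banded and next in right sham libraries, as for Dhrs7c. Of the 10, Myl2, Myl3 and Tnni3 fell in the right ventricle, Myl2 and Tnni3 rose in the left, and all 3 had a response that was lower in the right. With TPM scaling, as with quantile normalization, none of the 10 fell and 3 rose in the right ventricle. The left calls of Myl2 and Tnni3 were lost with TPM scaling (adjusted p = 0.0872 and 0.0932) and with the length and GC correction (0.0510 and 0.0531). The right call of Myl3 was lost in 11 of 16 fits that left out 1 library (adjusted p up to 0.0936) and with that correction (0.109). Fibroblast markers (11 genes) summed to 277 to 339 FPKM in right sham, 519 to 755 in right banded, 262 to 397 in left sham and 430 to 877 in left banded libraries. Of 16 skeletal muscle markers, relevant to Fbp2 and Ip6k3 as muscle genes, 9 were under 1 FPKM in every library, Myf6 was at 0, and the sum was 19.1 to 38.1 FPKM in right sham, 30.5 to 40.3 in right banded, 24.2 to 31.3 in left sham and 33.9 to 87.8 in left banded libraries. Hepatocyte markers summed to at most 6.89 FPKM in any library. The part of these cell types in the members' values was not tested.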

How the data were processed

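Per the submitters' processing notes, the tools were FastQC 0.11.5, STAR 2.5.3a, Cuffdiff, Cufflinks 2.2.1 and R 3.3.1, with build mm9. The authors deposited FPKM for 23946 genes in each of 16 libraries, 4 per group. Deposited FPKM were transformed to log2(FPKM + 1), and 12100 genes that reached 1 FPKM in 4 or more libraries were kept.

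A single limma 3.58.1 fit (R 4.3.3, group means of all 16 libraries, trended prior) gave each comparison, with Benjamini-Hochberg adjustment over all tested genes and a threshold of 0.05. It was repeated on values divided by a median-ratio scale factor (8211 genes). "Rose" and "fell" mean a call in the same direction on both scales. The code was tested on simulated data.

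The 6 members and all lists were chosen with earlier results of these data known. All relatives could be named. Of each other list up to 3 called genes with the smallest p for the difference between ventricles were named, with the 3 genes nearest to each member in profile. Other called genes and marker genes were added after their values were seen.

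Fragments were estimated from the lowest values of FPKM times GENCODE M21 transcript length, with an assumed fragment length of 200 nt. This cannot replace counts. PolyA selection, the FPKM scaling and the Rn45s difference can shift whole libraries, which is why other scalings, pseudocounts, filters, a robust prior, a replicate block and omitted libraries were tried. Correction for length and GC content and omission of right sham libraries 2 and 3 were chosen after seeing the data.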

Additional observations from a re-analysis of the deposited data

Results flagged for a closer look

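None of the 24 groups of member values (6 genes in 4 groups of 4) held a library far from the other 3 by Dixon's criterion of 0.829. Of the related genes that the naming rule gave, 15 responded differently in the ventricles by the test of that difference, as deposited and rescaled (limma, Benjamini-Hochberg over 12100 genes). The values that follow are log2 differences, right response minus left, with the adjusted p as deposited. Tst at -1.80 (0.0341), Pnpla2 at -1.11 (0.0113) and Mlycd at -0.99 (0.0116) passed as deposited and not rescaled. Pfkp, Pfkfb1 and Cidea, named outside the rule, passed on both scales.

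In sugar metabolism these were Eno3 at -1.81 (adjusted p = 0.000876), Pgam2 at -1.56 (0.00315) and Ldhb at -1.15 (0.00388). Among dehydrogenases and retinoid genes they were Dhrs7 at -1.31 (adjusted p = 0.0261), Dhrs11 at -1.21 (0.00767), Rdh5 at -1.46 (0.0244) and Aldh1a2 at -1.57 (0.00527). Got2 stood at -1.11 (adjusted p = 0.00338) and G0s2 at -1.52 (0.00404). Ucp3 stood at -1.71 (adjusted p = 0.0030), Plin5 at -1.22 (0.00836) and Hsd11b1 at -1.42 (0.0191). The values above 0 were those of Pam at 1.01 (adjusted p = 0.0429), Ppip5k1 at 1.19 (0.0254) and Inpp4b at 1.62 (0.0267).

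Each kept its direction under every alternative that gave a value, 28 settings, or 27 for Aldh1a2 and Inpp4b. Of the 15, 9 also passed with any 1 library left out (Eno3, Pgam2, Ldhb, Aldh1a2, Dhrs11, Got2, G0s2, Ucp3 and Plin5). Hsd11b1 was lost without left banded library PS_9552 (adjusted p = 0.0529). Ppip5k1 was lost without left sham 1 or right banded PS_9564 (up to 0.0601), and Rdh5 without left banded PS_9552, left sham 1 or right banded PS_9553 (up to 0.0654). Inpp4b was lost without left banded PS_9552, left sham 1 or 3, or right banded PS_9564 (up to 0.0671). Dhrs7 was lost in 8 of 16 such fits (without left banded PS_9552 or PS_9553, left sham 1 or 2, right banded PS_9552 or PS_9564, or right sham 1 or 4; up to 0.0678). Pam passed in 4 of 16, without left or right banded PS_9561 or left or right sham 2 (otherwise up to 0.0959). Without right sham libraries 2 and 3, the 2 shallowest, Ppip5k1 (0.0684) and Pam (0.0504) missed the threshold. With no filter on low values Pam (0.0646) and Inpp4b (0.0501) missed it, and with a pseudocount of 0.1 FPKM Inpp4b did (0.0991). With correction for transcript length and GC content 7 missed the threshold: Dhrs7 (0.0837), Pgam2 (0.117), Ldhb (0.107), Dhrs11 (0.206), Rdh5 (0.186), G0s2 (0.257) and Hsd11b1 (0.0716). With TPM scaling 11 missed it: Dhrs7 (0.266), Eno3 (0.0732), Pgam2 (0.124), Ldhb (0.352), Aldh1a2 (0.0580), Dhrs11 (0.280), Rdh5 (0.115), Got2 (0.433), G0s2 (0.224), Plin5 (0.252) and Hsd11b1 (0.188). With quantile normalization 5 did: Pgam2 (0.109), Ldhb (0.641), Dhrs11 (0.0773), Got2 (0.172) and G0s2 (0.0771). Without the 5 libraries in which Rn45s is listed at 0, which leaves 2 right and 1 left banded library, none of the 15 passed (adjusted p from 0.0555 to 0.461). The sizes were in part larger there, with Eno3 at -1.93, Rdh5 at -2.05 and Pam at 1.24, and in part smaller, with Dhrs7 at -1.01 and Aldh1a2 at -1.11. That setting has fewer libraries and also lacks those with Rn45s at 0, and these changes cannot be told apart in the lost calls.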

How the results depend on the processing

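The members' difference between responses kept its sign in 28 of 28 alternatives and stayed within 1 SD in 149 of 168 values. Beyond it, a pseudocount of 0.1 FPKM gave -3.06 for Penk, -3.69 for Cdo1 and 2.70 for Ip6k3. A pseudocount of 5 FPKM gave -1.90 for Fbp2, -1.82 for Penk, -1.36 for Cdo1 and 1.14 for Ip6k3. TPM scaling gave -2.085 for Fbp2, -2.03 for Dhrs7c, -2.08 for Penk, 2.71 for Ip6k3 and -1.59 for Ces1d, and quantile normalization -2.26 for Dhrs7c. Correction for length and GC content gave -2.17 for Fbp2, -1.99 for Dhrs7c, -2.16 for Penk and 2.48 for Ip6k3. Without the 5 libraries with Rn45s at 0, Cdo1 was at -2.09 and Ip6k3 at 2.58. The small left differences of Ces1d, Penk and Fbp2 changed sign in some settings. Ces1d was at -0.012 rescaled, -0.086 with quantile normalization and -0.11 with the length and GC correction, and Penk at -0.11 with that correction. Fbp2 ranged from -0.59 to 0.17 and kept its sign in 26 of 28 alternatives. The average right minus left difference passed for Ces1d under TPM scaling (-0.89, adjusted p = 0.0209) and quantile normalization (-0.64, 0.0418) and ranged from -0.76 to -0.56 with 1 library left out. For Dhrs7c it passed under TPM scaling (-0.70, 0.0414).

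Counts over all genes moved more, and the causes were not tested. For the right ventricle, 2108 genes as deposited became 5833 with TPM scaling, 881 with its own libraries only, 1344 without the 2 shallowest right sham libraries, 415 without the Rn45s libraries and 1203 to 2351 with 1 library left out (lowest without right banded PS_9564 or PS_9561). For the left, 1764 became 485 rescaled, 76 with TPM scaling, 511 with quantile normalization, 429 with the length and GC correction, 2780 with its own libraries only, 3 without the Rn45s libraries and 788 to 2394 with 1 left out (lowest without left sham 2). For the difference, 733 became 447 with the correction, 9 without the Rn45s libraries and 448 to 929 with 1 left out (lowest without left banded PS_9552). For the average difference, 69 became 416 rescaled, 957 with TPM scaling, 367 with quantile normalization, 7 without the Rn45s libraries and 8 to 145 with 1 left out (lowest without left sham 4, highest without right banded PS_9564). With the library number as a replicate block, the difference gave 475 genes and the average 12, and 5 of the 15 related genes lost their call for the difference: Dhrs7 (adjusted p = 0.0642), Rdh5 (0.0567), Pam (0.122), Ppip5k1 (0.0746) and Hsd11b1 (0.0667). Same-numbered libraries correlated at -0.0911 to 0.151, over 0.1 in 1 of 8 pairs, and the numbers were not taken as pairs. These correlations used deposited values, and Rn45s was at 0 in only the left PS_9552 and PS_9553 and only the right PS_9564. Low correlations therefore cannot show whether the banded numbers mark the same animals.

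Depth limits Ip6k3 in right sham libraries and Cdo1 in its low groups, and all 4 right sham libraries had fewer estimated fragments than any library of the other groups, so depth and group cannot be told apart there.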
